A study of Mus musculus with 6 samples.

Results

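The vacuolar proton pump (V-ATPase) was followed through 10 of its genes in mouse macrophages kept with or without yeast glucan particles. The members were the membrane subunits Atp6v0a1, Atp6v0b, Atp6v0d1 and Atp6v0e, the cytosolic subunits Atp6v1a, Atp6v1b2, Atp6v1c1, Atp6v1d and Atp6v1h, and the accessory subunit Atp6ap1. They were chosen by name, as the genes to which the RefSeq accession of a non-control probe belongs, and 12 of 39429 probes and 10 of 20283 named genes fell under that rule. The list of names was drawn up with earlier results of these data known. All 10 were well above background on every independent array, so the filter on dim probes, which left 10948 genes to be tested, removed none of them. A further 15 genes encode other subunits and isoforms of the pump and were read from the same arrays.

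The cells were bone-marrow-derived macrophages of C57BL/6 mice aged 6-8 weeks, labelled as polarized to the M2 state by an agent that the labels do not name. One group stayed for 6 h in complete DMEM alone (medium) and the other for 6 h in complete DMEM with WGP, whole glucan particles, which are yeast cell walls made mostly of beta-glucan. Cy3-labelled RNA was hybridised to 1-colour Agilent arrays, with 3 deposited files a group. Replicate 3 of each group repeated replicate 1 before processing, spot for spot, over all 44397 spots, which leaves n = 2 independent arrays a group and limits the precision of every value. Nothing in the labels says whether the replicates came from separate cultures, and the p-values reflect no more than the scatter of these arrays, which may be technical. Of 7 macrophage markers, 6 had a named probe and all of those were well above background on all arrays. Of 5 textbook markers of alternative activation, Mrc1 and Clec10a were well above background on all 4 arrays and Chil3 on 3, while Arg1 and Retnla were so on none.

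The pump uses ATP to move protons into lysosomes, phagosomes and endosomes. Its cytosolic V1 sector breaks down ATP and turns a central stalk, and the stalk drives a ring of proteolipids in the membrane V0 sector that carries the protons. In macrophages, acid made by this pump activates lysosomal hydrolases and is needed for the digestion of particles that the cells engulf. Many subunits exist as isoforms encoded by separate genes, and the a subunit isoforms direct the pump to different membranes.

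After 6 h with WGP, subunits of both sectors of the pump rose and the large membrane subunit Atp6v0a1 fell. Of the 10 members, 5 rose (Atp6v0e, Atp6v1a, Atp6v1c1, Atp6v1d and Atp6v1h), 1 fell (Atp6v0a1) and 4 did not pass the test, at an adjusted p under 0.05 in limma. Among all 10948 genes tested, 40.6% changed, 23.2% higher and 17.4% lower (of the called genes, 57.2% were higher, 72.7% when the arrays were scaled to their medians and 25.8% with no scaling), so that the share of changed members has to be read against a high background. The median change of the members was 0.46 on the log2 scale, against 0.028 for all genes tested. In RNA of whole cultures, a change in the number of cells of a type and a change in RNA per cell cannot be told apart. The arrays of medium and WGP did not overlap for 9 of the 10 members, Atp6ap1 being the exception, and for 75.1% of all genes. All 6 member calls were lost when probes too dim to be measured were also tested (adjusted p from 0.0535 for Atp6v1h to 0.165 for Atp6v1a), where 6 still had an unadjusted p under 0.05 in limma. Without WGP replicate 1, Atp6v1c1 and Atp6v1h were the 2 members past the threshold.

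Promoters of the members are shown because several subunits moved together and because lysosomal genes are known to share an E-box element, bound by factors of the TFEB family. Promoter sequences from RefSeq (GRCm38.p6, 250 bases before to 50 after a gene's start) were found for 7 of the 10 members, not for Atp6v1b2, Atp6v1c1 and Atp6v1h. The letters CACGTG, which read the same on both strands, occurred in 4 of these 7, in 0 of the 12 other pump genes with an entry, and in 8.09% of 27025 genes (7.15% of 32851 promoters). All 4 also held TCACGTG, searched on both strands and overlapping CACGTG, which was found in 4.29% of genes. The windows below run from 150 bases before the start to 20 after it, with CACGTG in capitals.
Atp6v0b, chr4:117887310-117887479, minus strand: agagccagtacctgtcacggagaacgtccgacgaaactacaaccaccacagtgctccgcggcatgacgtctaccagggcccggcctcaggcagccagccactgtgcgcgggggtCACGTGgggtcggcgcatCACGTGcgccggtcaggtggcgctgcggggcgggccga
Atp6v0d1, chr8:105566045-105566214, minus strand: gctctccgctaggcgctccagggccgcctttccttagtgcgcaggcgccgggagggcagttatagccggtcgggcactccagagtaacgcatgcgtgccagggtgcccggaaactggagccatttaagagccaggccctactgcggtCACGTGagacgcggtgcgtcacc
Atp6v0e, chr17:26676246-26676415, plus strand: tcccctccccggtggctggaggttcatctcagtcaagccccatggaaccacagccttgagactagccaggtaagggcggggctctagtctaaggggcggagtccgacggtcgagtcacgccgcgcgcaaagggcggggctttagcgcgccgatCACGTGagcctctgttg
Atp6v1a, chr16:44139240-44139409, minus strand: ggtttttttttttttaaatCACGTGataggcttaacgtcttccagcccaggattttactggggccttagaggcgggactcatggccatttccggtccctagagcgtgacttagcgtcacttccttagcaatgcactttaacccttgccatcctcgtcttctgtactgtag
Atp6v0b held the letters at 2 places, 36 and 18 bases before the start, Atp6v1a 131 bases before it, Atp6v0d1 across the start and Atp6v0e at base 4 after it. Of these 4 genes, Atp6v0e and Atp6v1a rose, and Atp6v0b and Atp6v0d1 did not pass the test. Of the 3 members with an entry and without the letters, Atp6v1d rose, Atp6v0a1 fell and Atp6ap1 did not pass.
The promoter of Atp6v0a1, the member that fell, is shown over the same window. Its capitals mark a match to TGANTCA, a loose form of the AP-1 site in which the middle base is free. Here that base is T, where the usual AP-1 site has C or G. Searched on both strands, TGANTCA was found in 8.97% of genes and in no other of the 7 members with a promoter entry.
Atp6v0a1, chr11:101010248-101010417, plus strand: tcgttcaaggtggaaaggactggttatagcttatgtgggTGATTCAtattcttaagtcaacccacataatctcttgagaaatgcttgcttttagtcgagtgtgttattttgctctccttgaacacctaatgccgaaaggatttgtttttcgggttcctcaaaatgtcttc
Of the other letters searched on both strands, GGGCGG (a GC box) was present in 5 of the 7 members and 38.2% of genes. The letters of the core promoter box TATAAA were present in 0 of 7 and in 15.7% of genes. These matches describe the letters of the windows, and no binding was measured.

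Levels are given on a log2 scale as the processed signal relative to the 75th percentile of its array, and each change is WGP minus medium on that scale. That percentile lay at 85.8 and 68.6 on the medium arrays, against 59.2 and 56.1 on those with WGP. The WGP arrays were thus dimmer as a whole, and so were their spiked-in control RNAs, with a mean log2 signal of 9.69 and 9.24 against 9.09 and 8.95. A subunit with the same unscaled signal in both groups is therefore higher with WGP after scaling.

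**Figure D1:**
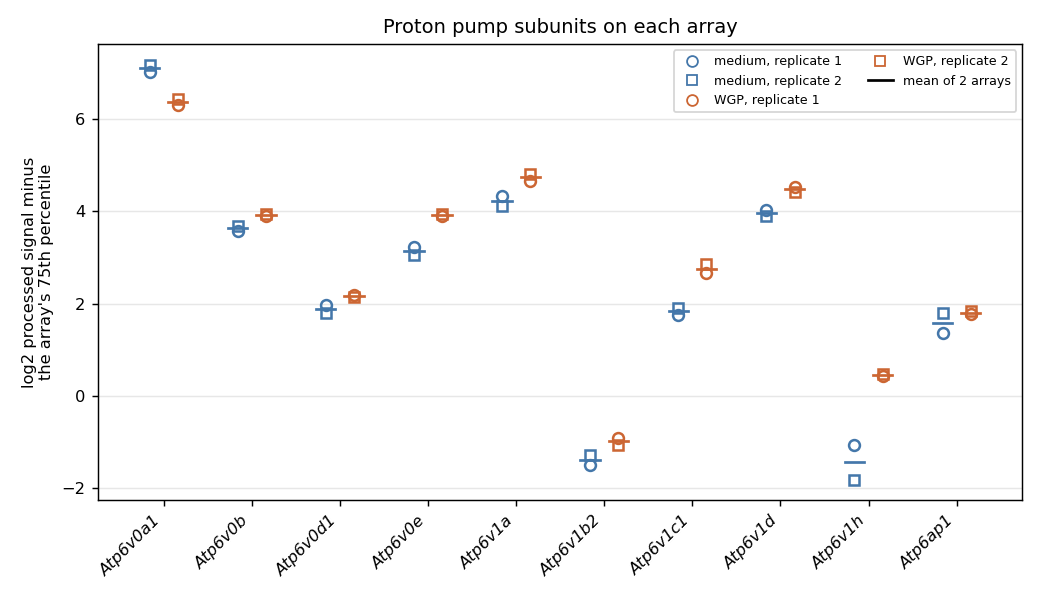
Level of each of the 10 members (log2, relative to the 75th percentile of the array) on the 2 medium and 2 WGP arrays, with the mean of each group as a bar. The WGP arrays lie below the medium arrays for Atp6v0a1, above them for 8 members, and within their range on 1 of 2 arrays for Atp6ap1.

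Among the membrane subunits, Atp6v0a1 encodes an isoform of the large a subunit, which carries protons past the proteolipid ring and anchors the cytosolic stator. Its level stood at 7.03 and 7.18 in medium and at 6.30 and 6.43 with WGP, so both WGP arrays lay below both medium arrays. The unscaled processed signals were 11200 and 9940 in medium and 4650 and 4830 with WGP. From 7.10 ± 0.11 (SD, n = 2) to 6.36 ± 0.093, the gene fell by 0.74 ± 0.11 on the log2 scale (SE), or 1.67-fold (limma adjusted p = 0.0127). The fall was 0.73 on slide 1 and 0.75 on slide 2, each of which carried 1 medium and 1 WGP array. It did not pass once WGP replicate 1 was left out (adjusted p = 0.066).

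Atp6v0e, a small hydrophobic subunit that spans the membrane, moved the other way. It stood at 3.23 and 3.05 in medium and at 3.90 and 3.94 with WGP. The groups lay apart, and the rise was 0.78 ± 0.11 (SE), or 1.71-fold (limma adjusted p = 0.0108). Leaving out either WGP array ended this call, with an adjusted p of 0.0519 without replicate 1 and 0.0566 without replicate 2.

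The proteolipid Atp6v0b and the stalk-coupling subunit Atp6v0d1 did not pass the test. Atp6v0b was at 3.59 and 3.68 in medium and at 3.91 and 3.94 with WGP, a change of 0.30 ± 0.097 (SE, limma adjusted p = 0.0759, 95% interval 0.031 to 0.56). Atp6v0d1 was at 1.97 and 1.81 in medium and at 2.19 and 2.16 with WGP, a change of 0.29 ± 0.11 (SE, limma adjusted p = 0.101, 95% interval -0.0048 to 0.58). Both were higher on the WGP array of each slide after scaling. Without any scaling between arrays the changes of both had the opposite sign, at -0.023 for Atp6v0b and -0.032 for Atp6v0d1. With an intensity trend in the estimate of the spread, both passed (adjusted p = 0.0212 and adjusted p = 0.0498).

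Among the cytosolic subunits, 4 of 5 rose and the fifth, Atp6v1b2, was higher without passing the test. Atp6v1h, the regulatory H subunit, which couples the cytosolic sector to the membrane sector and blocks ATP use by a detached one, had the largest change of all members. It was measured at -1.05 and -1.81 in medium and at 0.43 and 0.48 with WGP. The medium arrays differed more from each other than for any other member, yet both lay far below the WGP arrays. From -1.43 ± 0.53 (SD, n = 2) to 0.45 ± 0.031, Atp6v1h rose by 1.88 ± 0.28 (SE), or 3.69-fold (limma adjusted p = 0.0113). The rise was 1.49 on slide 1 and 2.28 on slide 2. The probe was among the dimmer ones of the members, with processed signals of 41.3 and 19.6 in medium and 79.8 and 78.0 with WGP. Under the normexp background corrections its rise stayed past the threshold but was smaller, at 0.87 with 75th percentile scaling and 0.86 with quantiles.

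Atp6v1c1 encodes the C subunit, a clamp between the sectors that is released when the pump comes apart. Its level went from 1.77 and 1.91 in medium to 2.67 and 2.86 with WGP. It rose by 0.93 ± 0.12 (SE), or 1.90-fold (limma adjusted p = 0.00894), with 0.90 on slide 1 and 0.95 on slide 2. With normexp the rise was 0.53 and 0.55. Its call, like that of Atp6v1h, held in each of the 4 fits that left out 1 array.

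Atp6v1a, the catalytic A subunit that binds and splits ATP, was at 4.34 and 4.13 in medium and at 4.66 and 4.82 with WGP. Atp6v1d, the D subunit of the central rotating stalk, was at 4.04 and 3.91 in medium and at 4.53 and 4.43 with WGP. Neither gene had overlapping groups. Atp6v1a rose by 0.50 ± 0.13 (SE), or 1.42-fold (limma adjusted p = 0.0418), and Atp6v1d by 0.51 ± 0.11, or 1.42-fold (limma adjusted p = 0.0267). With a replicate block (1 slide for each replicate number), under which 37.4% of all genes changed, Atp6v1a did not pass (adjusted p = 0.0682). Both calls were lost in each of the 4 fits that left out 1 array, at an adjusted p of 0.0555 to 0.17 for Atp6v1a and 0.0526 to 0.132 for Atp6v1d. With normexp the changes were 0.26 and 0.29 for Atp6v1a and 0.28 and 0.29 for Atp6v1d, and with the 75th percentile as the scale neither passed (adjusted p = 0.138 and adjusted p = 0.0545).

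Atp6v1b2, the B subunit isoform found in most tissues, which alternates with the A subunit in the catalytic ring, was at -1.50 and -1.27 in medium and at -0.91 and -1.05 with WGP. Its change was 0.41 ± 0.13 (SE, limma adjusted p = 0.071, 95% interval 0.054 to 0.76). It passed with the median or quantiles as the scale (adjusted p = 0.0431 and adjusted p = 0.0479), but not with an intensity trend (limma adjusted p = 0.116). The probe was dim, with processed signals of 30.4 and 28.4 in medium and 31.6 and 27.1 with WGP. Without scaling the change was 0.089.

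Atp6ap1, an accessory membrane protein needed for assembly of the membrane sector, was at 1.36 and 1.79 in medium and at 1.77 and 1.85 with WGP. One WGP array lay below a medium array, and the change was 0.23 ± 0.18 (SE, limma adjusted p = 0.347, 95% interval -0.25 to 0.72), or -0.085 without scaling. A second probe of Atp6ap1 gave 1.36 and 1.48 in medium against 1.47 and 1.53 with WGP. Atp6v1a also had a second probe, at 3.90 and 3.96 in medium and 4.40 and 4.37 with WGP, and its difference had the same sign as that of the brighter probe. The other 8 members had 1 probe each.

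The 15 other pump genes moved in the same direction where they changed. With WGP, 5 of the 10 that passed the filter rose, 0 fell (0 also at an unadjusted p under 0.05 in limma), and 5 did not pass the test, beside 23.2% higher and 17.4% lower among all genes, with a median change of 0.57 against 0.028 for all genes tested. The other 5 (Atp6v0a4, Atp6v0e2, Atp6v1b1, Atp6v1c2 and Atp6v1g3), isoforms known best from kidney, brain or other specialised tissues, were well above background on 0 of 4 arrays. Of the 20 pump genes measured in all, 10 rose and 1 fell. Without scaling between the arrays, 0 of the 10 other pump genes passed the limma test, and 1 had an unadjusted p under 0.05.

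Of the other a subunit isoforms, Atp6v0a2 rose, Tcirg1 did not pass the test and Atp6v0a4 was too dim to be tested. Atp6v0a2, an isoform of Golgi and endosomes, was at -1.68 and -1.89 in medium and at -0.83 and -0.85 with WGP, a rise of 0.95 ± 0.12 (SE), or 1.93-fold (limma adjusted p = 0.00757). This probe was dim, with processed signals of 26.7 and 18.5 in medium and 33.4 and 31.2 with WGP, and the rise was 0.35 and 0.27 under the normexp background corrections (75th percentile and quantile scaling). Tcirg1, which encodes the a3 isoform of lysosomes and of the bone-facing membrane of osteoclasts, was at 3.46 and 3.91 in medium and at 4.28 and 4.20 with WGP, a change of 0.55 ± 0.18 (SE, limma adjusted p = 0.0749). Tcirg1 passed with the median as the scale (limma adjusted p = 0.0489), but not with quantiles (limma adjusted p = 0.195). Relative to Atp6v0a1 on the same array, Atp6v0a2 was 3.23-fold and Tcirg1 2.45-fold higher with WGP than in medium, with each slide in that direction. An exact two-sided permutation test gave p = 0.333 for each of 3 such ratios (0.333 after Benjamini-Hochberg adjustment), the smallest p that 4 arrays allow.

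The d subunit showed its larger change in the other isoform. Atp6v0d2, which replaces Atp6v0d1 in osteoclasts and some macrophages, was at 2.15 and 2.62 in medium and at 3.51 and 3.43 with WGP. It rose by 1.09 ± 0.19 (SE), or 2.12-fold (limma adjusted p = 0.0169), and a second, dimmer probe also lay higher on both WGP arrays (-1.69 and -1.55 in medium, -0.69 and -1.07 with WGP). Leaving out a WGP array ended the call of Atp6v0d2 as well, with an adjusted p of 0.0639 without replicate 1 and 0.0563 without replicate 2. The ratio of Atp6v0d2 to Atp6v0d1 was 1.74-fold higher with WGP, the third of the ratios above. Its log2 change was 1.14 on slide 1 and 0.46 on slide 2. This ratio rests on the brighter Atp6v0d2 probe, and the dimmer one changed by 0.74.

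Some osteoclast markers also rose, 3 of the 5 tested, beside 23.2% higher among all genes. Of 6 such markers with a named probe, 5 were well above background on all arrays and Calcr on none, and their summed level, relative to the 75th percentile, was 10.50 to 10.66 in medium and 39.1 to 41.5 with WGP. Dcstamp, which mediates fusion of osteoclast precursors, rose 8.31-fold, the acid phosphatase Acp5 4.37-fold and the protease Ctsk 3.54-fold, while Ocstamp (-0.021) and Oscar (-0.36) did not pass the test. Their part in the rise of the pump genes was not tested.

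The remaining subunits that rose belong to the stalks of the cytosolic sector or to the accessory proteins. Atp6v1e1, of the peripheral stalks, rose from 1.54 and 1.67 in medium to 2.55 and 2.29 with WGP, a change of 0.81 ± 0.13 (SE), or 1.76-fold (limma adjusted p = 0.0149). Atp6v1f, of the central stalk, rose from 7.55 and 7.70 to 8.54 and 8.43, a change of 0.86 ± 0.11 (SE), or 1.81-fold (limma adjusted p = 0.00854). Atp6ap2, the prorenin receptor, rose from 0.083 and 0.025 to 0.53 and 0.74, a change of 0.58 ± 0.12 (SE), or 1.49-fold (limma adjusted p = 0.0246). The call of Atp6ap2 was lost in each of the 4 fits that left out 1 array (adjusted p of 0.0571 to 0.112) and its rise was 0.35 with either normexp fit, and that of Atp6v1e1 without replicate 1 of medium (adjusted p = 0.058) and without replicate 1 of WGP (adjusted p = 0.0626).

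Among the other pump genes, 4 besides Tcirg1 did not pass the test. The proteolipid Atp6v0c, the main subunit of the rotor ring, was at 5.52 and 5.68 in medium and at 5.84 and 5.95 with WGP (change 0.30 ± 0.11, SE, limma adjusted p = 0.105), and its sign turned without scaling (-0.018). The stator subunit Atp6v1g1 was at 3.94 and 3.71 in medium and at 4.22 and 4.27 with WGP, a change of 0.42 ± 0.12 (SE, limma adjusted p = 0.06). Atp6v1g1 passed with the median or the spiked-in controls as the scale (limma adjusted p = 0.0275 and 0.0413), but not with quantiles (limma adjusted p = 0.154). The testis isoform Atp6v1e2 changed by 0.089 ± 0.11 and the brain isoform Atp6v1g2 by -0.13 ± 0.19 (SE, limma adjusted p = 0.546 and 0.609). The sign of Atp6v1e2 turned without scaling (-0.23) and that of Atp6v1g2 with the median as the scale (0.031).

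**Figure D2:**
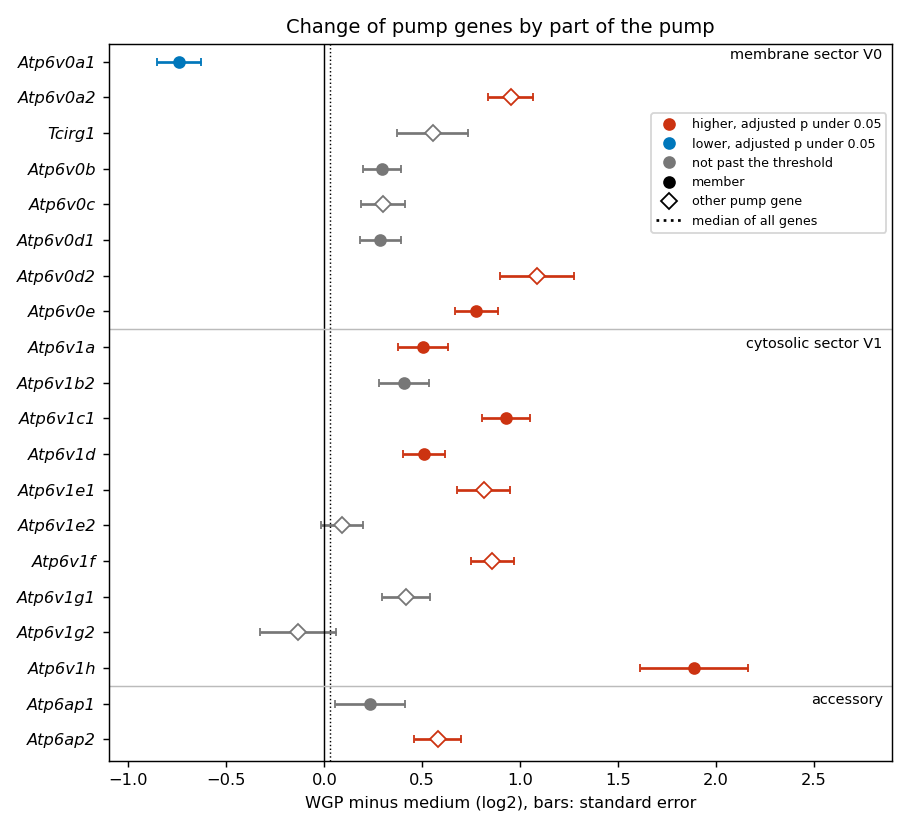
Change of the 20 measured pump genes (WGP minus medium, log2, with the standard error as bars), grouped as membrane sector, cytosolic sector and accessory proteins, with members as circles and other pump genes as diamonds. Atp6v0a1 at -0.74 is the gene that fell, 10 genes in red rose, and the dotted line marks the median of all genes at 0.028.

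Since the scale of the arrays sets the zero of these changes, the members were compared under 5 scalings. Atp6v0a1 was lower and Atp6v1h higher past the threshold under each of them. Atp6v0e and Atp6v1c1 were past the threshold under 4, and without scaling their changes were 0.46 and 0.61 (adjusted p = 0.385 and adjusted p = 0.222). Atp6v1a and Atp6v1d were past it under 3, and not with quantiles (adjusted p = 0.0831 and adjusted p = 0.0616) or without scaling (adjusted p = 0.764 and adjusted p = 0.759). Scaling to the 7 spiked-in control probes gave the members a median of 0.49, with 5 higher and 1 lower, and scaling to the median of the array gave 0.62, with 7 higher and 1 lower. Scaling to the median moved the median of all genes to 0.19. Scaling to the median or the spiked-in controls, or leaving scaling out, moves all genes of an array by the same amount. The distance between the members' median and that of all genes was therefore fixed under these, and its constancy is no support. With quantiles, where it can change, the medians were 0.35 for the members and -0.0034 for all genes. Without scaling, the medians were 0.14 for the members and -0.29 for all genes.

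**Figure D3:**
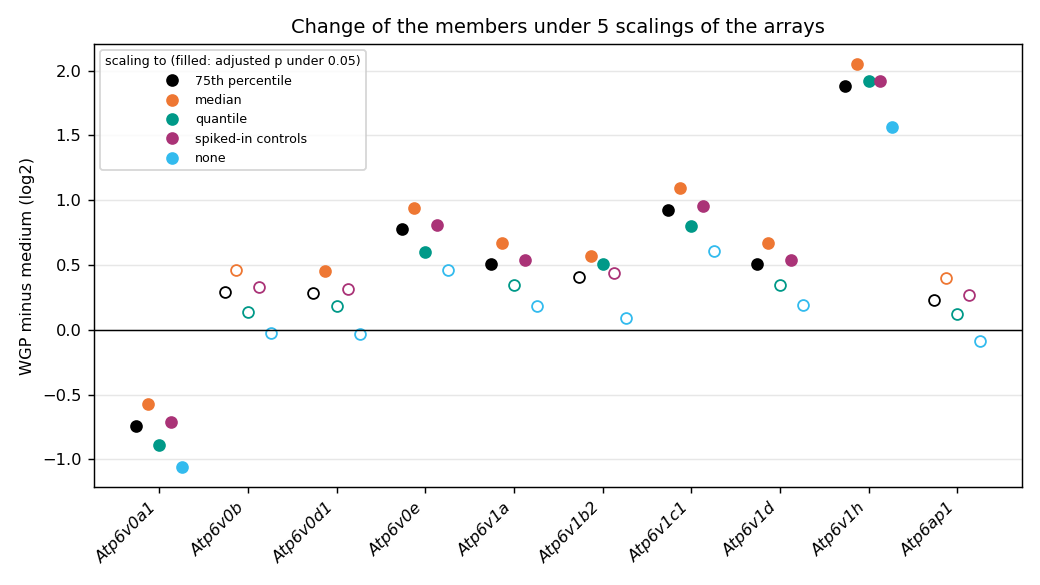
Change of each member (WGP minus medium, log2) under 5 ways of scaling the arrays, with filled circles where the limma adjusted p was under 0.05. Atp6v0a1 stays below 0 and Atp6v1h well above 0 throughout, while Atp6v0b, Atp6v0d1 and Atp6ap1 cross 0 without scaling.

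The MiT/TFE factors, which bind such E-boxes in lysosomal genes, were measured on the same arrays. Of the 4, Mitf rose from 3.57 ± 0.17 (SD, n = 2) to 4.91 ± 0.075, or 2.53-fold (limma adjusted p = 0.00467), and Tfe3 rose 1.62-fold (limma adjusted p = 0.0143). Tfeb (0.036 ± 0.18, SE) and Tfec (0.17 ± 0.12) did not pass the test. These 2 of 4 stand beside 23.2% higher among all genes. Whether these factors had a part in the changes of the pump genes was not tested.

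The neighbouring lists below are to be read beside the 23.2% of all genes that were higher and the 17.4% that were lower. Factors that assemble or regulate the pump went both ways. Of 12 such genes, 9 were measured, of which 2 rose and 3 fell, with a median change of -0.12. Dmxl2, a rabconnectin that promotes joining of the sectors, was not well above background in medium and measured 4.45-fold higher with WGP. Rogdi, a partner in the same complex, was not well above background with WGP and was at least 3.65-fold lower. Dmxl2 passed the filter only through its WGP arrays and Rogdi only through its medium arrays. Their p-values are not independent of that filter and are not given, though the counts above include both genes. For the bound of Rogdi the dim arrays were set to the faintest level at which any probe was well above background there, or to the measured level where that was brighter. The same rule left the measured medium levels of Dmxl2 as they were, so its fold change is an estimate and no bound. Ccdc115, a chaperone of pump assembly, rose 1.38-fold (limma adjusted p = 0.0383), and Ncoa7, a TLDc protein that binds the pump, was 1.35-fold lower (limma adjusted p = 0.0436).

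Ion channels and exchangers of lysosomes and endosomes also went both ways, with 3 of 12 higher and 2 lower, shares near those of all genes, and a median of -0.039. Clcn7, the lysosomal chloride-proton exchanger, rose from 0.85 ± 0.022 (SD, n = 2) to 2.38 ± 0.052, or 2.89-fold (limma adjusted p = 0.00221). Its partner subunit Ostm1 changed by 0.034 ± 0.11 (SE, limma adjusted p = 0.821). The cation channel Mcoln2 rose 4.02-fold (limma adjusted p = 0.00486), and the channel Tpcn1 was 5.16-fold lower (limma adjusted p = 0.0016), from 4.81 ± 0.14 to 2.44 ± 0.061. Clcn5, an endosomal exchanger, was 1.59-fold lower (limma adjusted p = 0.0111).

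The list of mTORC1 docking at the lysosome had 4 of 12 measured genes higher and 3 lower, with a median of 0.067. It holds the Ragulator and Rag proteins, through which the pump signals amino acids to mTORC1, and also Slc38a9, Flcn, Fnip1 and Fnip2. Lamtor3 rose 1.83-fold and Fnip2 1.43-fold (limma adjusted p = 0.00865 and 0.0241), while Lamtor4 was 2.29-fold and the amino acid transporter Slc38a9 1.87-fold lower (limma adjusted p = 0.00901 and 0.00581). The mitochondrial ATP synthase, the related rotary enzyme that makes ATP, had 4 of 16 genes higher, a share near that of all genes, and 1 lower, with a median of 0.28. Its ring subunit Atp5g1 rose 1.75-fold and its catalytic subunit Atp5b 1.57-fold (limma adjusted p = 0.0104 and 0.0258), and the inhibitor Atpif1 was 1.36-fold lower (limma adjusted p = 0.0262). Whether the pump list differed from these lists was not tested.

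**Figure D4:**
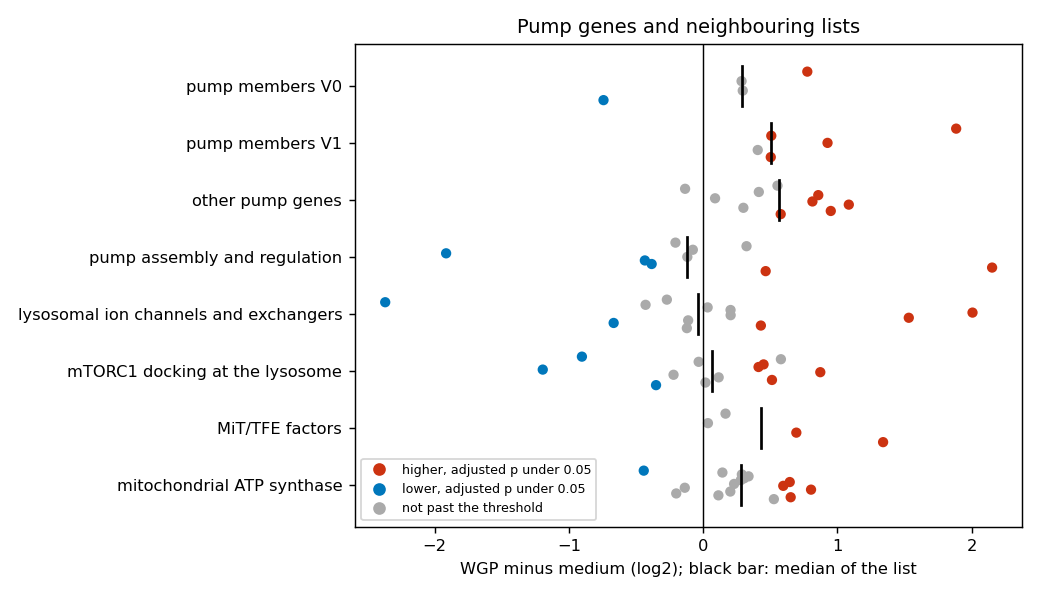
Change (WGP minus medium, log2) of every measured gene of the pump except Atp6ap1, and of 5 neighbouring lists, coloured by the limma call, with the median of each list as a black bar. The medians are 0.29 and 0.51 for the members of the membrane and cytosolic sectors and 0.57 for the other pump genes, beside -0.12, -0.039, 0.067, 0.43 and 0.28 for the assembly, channel, mTORC1 docking, MiT/TFE and ATP synthase lists.

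The macrophage markers went both ways. Their summed level over 6 genes was 1411 to 1455 in medium and 1645 to 1906 with WGP, while their median change was -0.21. Cd14, a co-receptor for lipopolysaccharide, rose 2.25-fold, and the receptor Mertk was 3.70-fold and the lysozyme gene Lyz2 1.39-fold lower (limma adjusted p = 0.00398, 0.00177 and 0.0306). Among other cell types the culture could hold, Cd3d, Cd3g and Cd2 of T cells, all 5 markers of mast cells or basophils, and Flt3, Cd209a and Xcr1 of dendritic cells were well above background on no array. The other markers measured on all arrays were 2 of 5 for T cells, 2 of 5 for dendritic cells, 3 of 5 for fibroblasts or stroma, 2 of 4 for endothelium, 1 of 4 for megakaryocytes and 3 of 5 for neutrophils. The summed level was 14.2 to 15.4 in medium and 12.2 to 17.9 with WGP for T cells, 0.709 to 0.960 and 0.949 to 1.17 for dendritic cells, and 10.46 to 15.04 and 11.48 to 12.05 for fibroblasts or stroma. For endothelium it was 47.8 to 61.5 in medium and 54.8 to 71.8 with WGP, for megakaryocytes 0.874 to 1.24 and 0.555 to 0.648, and for neutrophils 18.9 to 23.4 and 19.4 to 19.7. Of these lists, Ccr7 of dendritic cells rose 1.80-fold and Gp1bb of megakaryocytes was 2.82-fold lower (limma adjusted p = 0.0371 and 0.0163). Col3a1 of stroma, not well above background with WGP, was at least 1.62-fold lower. It passed the filter only through its medium arrays, so no p-value is given for it. Neither these genes nor the summed levels were tested further. The part of these cell types in the changes of the pump genes was not tested.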

How the data were processed

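Spot intensity (Cy3, 1 colour) came from Agilent Feature Extraction 10.7.3, the tool named in the submitters' processing notes. Per the file headers, the processed signal that the authors deposited is an intensity from which background was subtracted and spatial trends removed within each array, and the arrays were not normalized to each other. The authors also deposited a table of log2 values, which after centring of each probe differed by at most 0.0107 from the scaled scanner values over 39394 probes. Its column medians were -0.0144, 0.164 and 0.103 in medium and 0.0998, 0.13 and 0.1 with WGP. The baseline of its centring stays unknown, and it served as an alternative.

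The headers give WGP replicate 3 the slide of WGP replicate 1, but medium replicate 3 a slide other than that of medium replicate 1. This conflicts with their identical spots before processing and stays unexplained. Medium replicate 3 held, after processing, the mean of medium replicates 1 and 2 (within 0.695%), and WGP replicate 3 held WGP replicate 1 multiplied by 1.3 (within 0.488%). The latter was averaged with WGP replicate 1, and the former was left out, a departure from the design written for repeated files. Control spots (1377) and outlier spots were left out, and 0 spots were saturated. RefSeq accessions (table of GRCm38.p6) named 26761 of 39429 probes. Kept probes were well above background on the 2 arrays of medium, of WGP or of both, and the brightest kept probe stood for a gene. The test was limma 3.58.1 (R 4.3.3) over 10948 genes with Benjamini-Hochberg adjustment. The code was tested on simulated data.

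Per the file headers, replicates 1 and 2 were each 1 slide and 1 scan, and the deviations of same-slide arrays from their group means correlated at 0.15 (2 pairs), so the fit with the replicate block was an alternative. Every medium array was at position 1 and every WGP array at position 3, so position and treatment cannot be told apart. The files hold no mean spot signal, so the normexp alternatives used the median. All members and pump genes were named, and of every other list up to 2 genes with the largest rise and up to 2 with the largest fall past the threshold. Tfeb, Tfec, Ostm1, Ctsk, Ocstamp and Oscar fall outside this rule and were named after their values were seen. The marker lists of B cells and erythroid cells are not reported here. The members, lists and alternatives were chosen with earlier results of these data known.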

Additional observations from a re-analysis of the deposited data

How the results depend on the processing

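Besides the reported fit, 20 alternatives were run, of which 3 (averaging medium replicate 3 with medium replicate 1, scaling to spiked-in controls and no scaling) were chosen after seeing the data. Of the 6 members called, Atp6v1h kept its call in 19 of 20 and Atp6v0a1 and Atp6v1c1 in 18 of 20. Atp6v0e kept its call in 16 of 20, Atp6v1d in 12 and Atp6v1a in 11. Of these 6 members, 0 changed direction under the 20 alternatives. Testing dim probes too called 1532 of all genes, 0 members (6 at an unadjusted p under 0.05 in limma) and 1 other pump gene. Treating each of the 6 files as its own sample called 7453 genes and 8 other pump genes, and an intensity trend called 8 other pump genes. Without scaling, 2447 genes, 2 members and 0 other pump genes were called in limma (1 of the latter at an unadjusted p under 0.05), the members' median was 0.14, and signs turned for Atp6ap1 (-0.085), Atp6v0b (-0.023), Atp6v0c (-0.018), Atp6v0d1 (-0.032) and Atp6v1e2 (-0.23). The sign of Atp6v1g2 turned with median scaling (0.031), normexp with 75th percentile scaling (0.10) or with quantiles (0.022), and it ranged from -0.37 to 0.099 when 1 array was left out. The members' median was 0.62 with median scaling, 0.35 with quantiles, 0.27 and 0.26 with normexp (75th percentile, quantiles), 0.44 with the mean over probes, 0.43 with the probe of smallest spread and 0.49 with spiked-in controls. Leaving out 1 array gave 2253 to 3282 changed genes, 2 to 4 members, 2 to 5 other pump genes and a median of 0.40 to 0.47, in fits where the single remaining array takes the spread of the other group. With the replicate block, 4092 genes, 5 members and 5 other pump genes were called, and Atp6v1a was the member whose call it ended. The cause of these differences was not tested, beyond the fact that testing dim probes raises the number of genes from 10948 to 20274.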
